A study of Mus musculus with 26 samples.

Results

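The genes that write, copy and erase cytosine methylation on DNA were followed through knockdown of the RNA methyltransferases Mettl3 and Mettl14 in J1 mouse embryonic stem cells. 9 genes were listed: the erasers Tet1, Tet2 and Tet3, the methyltransferases Dnmt1, Dnmt3a and Dnmt3b, the cofactors Dnmt3l and Uhrf1, and the glycosylase Tdg. Each gene was represented by the probe set that carries its symbol alone, and 8 of the 9 had 1 such probe set each, out of 22180 genes on the array. Tdg had none, because both of its probe sets are also assigned to a Tdg pseudogene, and those are given separately. All 8 members lay above the limit of mean signal below which the dimmest 7393 genes were left out, so all 8 were tested among 14787 genes.

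RNA from 26 samples was hybridised to whole-transcript mouse arrays, with 2 arrays in each of 13 groups. In the time course, Mettl14 knockdown, Mettl3 knockdown and scramble control cells were each taken at 0, 4 and 8 h (18 arrays). The labels do not say with what the cells were incubated over these hours. In a repeat set at 0 h (8 arrays), Mettl14 knockdown and Mettl3 knockdown cells were each set against a scramble control of their own. All groups are the same J1 line, grown with serum and LIF on irradiated mouse fibroblasts. The labels describe both lentiviral hairpins and transfected small interfering RNAs without saying which arrays used which. They call the scramble cells wild type. On 1 array of each scramble group of the repeat set, the description gives 4 h where the title, source and time give 0 h, and these arrays were grouped as 0 h. The titles call the 2 arrays of a group biological replicates without saying whether they came from separate cultures, so the p-values cover only the spread between these arrays, which may be technical. In such bulk samples, fewer cells of a type and less RNA per cell cannot be told apart.

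DNA methylation in mammals is set on cytosines that precede a guanine (CpG) by Dnmt3a and Dnmt3b, whose activity is raised by the inactive family member Dnmt3l in germ cells and embryonic stem cells. Dnmt1 copies the pattern to the new strand after replication, and Uhrf1 brings it to the hemimethylated sites. Tet1, Tet2 and Tet3 oxidise 5-methylcytosine, and Tdg cuts out the most oxidised bases so that repair can put back plain cytosine. Naive embryonic stem cells are known for Tet1 and Tet2, whereas Dnmt3b is known to be higher in the primed epiblast and Tet3 in differentiated cells. Mettl3 and Mettl14 form the complex that puts N6-methyladenosine on messenger RNA, a mark known to shorten the life of many transcripts.

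The sequence just upstream of a gene is shown for 3 members whose behaviour differed in the arrays: Tet1, which was lower in every knockdown, Dnmt3b, which was higher in every knockdown, and Dnmt3l, which gave different values in the 2 sets of arrays. The sequences are from RefSeq on GRCm38.p6, run 5′ to 3′ on the gene's strand and end at the last base before the annotated span of the gene, so that for Tet1 and Dnmt3b they stop short of the start used for the windows below. CpG dinucleotides, the sites the members act on, are in capitals.
Tet1, chr10:62887470-62887574, minus strand: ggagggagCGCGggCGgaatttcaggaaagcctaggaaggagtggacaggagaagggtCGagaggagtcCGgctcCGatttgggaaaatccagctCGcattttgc
Dnmt3b, chr2:153649199-153649410, plus strand: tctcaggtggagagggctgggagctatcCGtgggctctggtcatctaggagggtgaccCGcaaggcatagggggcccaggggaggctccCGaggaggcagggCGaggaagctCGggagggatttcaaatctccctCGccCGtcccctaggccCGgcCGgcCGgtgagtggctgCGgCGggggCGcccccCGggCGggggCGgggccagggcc
Dnmt3l, chr10:78042037-78042286, plus strand: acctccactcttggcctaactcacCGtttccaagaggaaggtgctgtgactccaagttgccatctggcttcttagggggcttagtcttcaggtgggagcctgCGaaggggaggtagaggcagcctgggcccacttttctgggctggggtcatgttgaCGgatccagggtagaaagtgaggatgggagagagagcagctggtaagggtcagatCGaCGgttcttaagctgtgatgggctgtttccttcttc
The 105 bases upstream of Tet1 hold 7 CpG, the 212 upstream of Dnmt3b hold 16, and the 250 upstream of Dnmt3l hold 5. All 9 genes matched a RefSeq entry, with 16 start windows of 300 bases (250 before the start and 50 after it) among 32851 for the genome, whose median was 7 CpG. Tet2 had 57 CpG in its window, which is at percentile 99.9, and Dnmt3a had 46 and 47 at its richest starts. Dnmt3l had 6, 4 and 3 at its 3 starts. The fewest among the 16 windows, 2, were at 1 of the 3 starts of Dnmt1, whose other starts had 33 and 12. The GC box GGGCGG, searched on both strands and itself holding a CpG, was found in 12 of the 16 windows and in 35.7% of all windows. The E2F motif TTTCGCGC was found at 1 start of Dnmt1 and 1 of Uhrf1, against 0.323% of all windows. The motif TTCNNNGAA, bound by STAT factors, was found at 1 start of Dnmt3l and 1 of Tdg, against 8.30%. The octamer ATTTGCAT was in none of the 16 and in 1.74% of all. These matches describe the letters of the windows only.

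The targets of the knockdown were checked first. Mettl14 was 7.28 and 7.51 on the log2 scale in the Mettl14 knockdown at 0 h and 9.08 and 9.10 in scramble, a change of −1.70 ± 0.13 (limma standard error, n = 2 each, as for every change below). On the repeat arrays it was 7.60 and 7.25 in the Mettl14 knockdown and 8.77 and 8.79 in its scramble. The brightest probe set for Mettl3 is shared with its neighbour Tox4: it was 9.09 and 9.20 in the Mettl3 knockdown against 11.05 and 11.03 in scramble, and 8.83 and 8.69 against 10.88 and 10.80 in the repeat set. The probe set of Tox4 alone did not pass in either set (0.10 and −0.17). The shared set was also lower in the Mettl14 knockdown (−0.50 and −0.45). Embryonic stem cell markers were expressed in all groups, with 9 of 10 listed genes above the limit of signal and Dppa5a below it. At 0 h of the time course their mean log2 value per array was 9.93 to 9.97 in the Mettl14 knockdown. It was 9.96 to 9.98 in the Mettl3 knockdown and 10.66 to 10.69 in scramble. In the repeat set it was 10.10 to 10.13 in the Mettl14 knockdown against 10.50 to 10.55. The Mettl3 knockdown there had 10.02 to 10.05 against 10.53 to 10.55. Markers of primed epiblast were a list of 7 that includes Dnmt3b. In the time course they had means of 9.03 to 9.08 and 8.94 to 8.99 in the knockdowns and 7.85 to 7.96 in scramble. In the repeat set they were 8.70 and 8.70 in the Mettl14 knockdown against 8.29 and 8.38. The Mettl3 knockdown there had 8.85 and 8.87 against 8.12 and 8.21. Fgf5 changed most in all 4 comparisons at 0 h (3.02, 2.45, 1.38 and 1.63), and Sox3 passed in none. Otx2, Pou3f1 and Zic2 did not pass in the repeat Mettl14 knockdown. Feeder fibroblast markers of the time course had means of 6.86 to 6.93 and 6.79 to 6.89 in the knockdowns and 6.54 to 6.61 in scramble. Of the 12 fibroblast genes tested, 4 were higher and 0 lower in the Mettl14 knockdown and 4 higher and 1 lower in the Mettl3 knockdown. Of all genes tested, 19.4% were higher and 20.1% lower in the Mettl14 knockdown, and 19.3% and 18.6% in the Mettl3 knockdown. In the repeat set the means of the fibroblast markers were 7.11 to 7.12 in the Mettl14 knockdown against 6.96 to 7.01. They were 7.08 to 7.10 in the Mettl3 knockdown against 6.80 to 6.85, with 3 and 5 genes higher and 0 lower. The shares of all genes there were 19.4% higher and 16.9% lower for Mettl14, and 17.9% and 17.4% for Mettl3. Fstl1 (1.41, 1.25, 0.58 and 0.79) and Mmp2 (1.48, 1.41, 0.26 and 0.55) were higher and passed in all 4 comparisons at 0 h. Dcn, Lum and Postn were below the limit of signal. Col1a2, Col3a1, Col6a1, Col6a2, Pdgfra and Thy1 did not pass in any of the 4 comparisons at 0 h. In the time course, trophoblast markers had means of 8.23 to 8.34 and 8.27 to 8.30 in the knockdowns and 7.62 to 7.68 in scramble. In the repeat set they were 8.74 and 8.74 in the Mettl14 knockdown against 8.08 and 8.09. The Mettl3 knockdown there had 8.39 and 8.43 against 7.97 and 8.02. Krt8 (2.34, 2.51, 1.36 and 1.12), Krt18 (2.24, 2.31, 1.54 and 1.17) and Krt7 (0.40, 0.56, 0.75 and 0.54) were higher and passed in all 4 comparisons at 0 h. Tfap2c was lower and passed in all 4 (−1.33, −1.20, −0.20 and −0.63), and Gata3 passed in none. Of 5 extraembryonic endoderm genes tested, 1 and 2 were higher and 0 lower in the time course, and 1 and 2 were higher and 1 and 1 lower in the repeat set. With so few genes, these counts are to be read beside the shares of all genes given above for each knockdown. In the repeat set Dab2 was higher (0.73 and 0.70) and Gata4 lower (−0.34 and −0.39). Gata6 was below the limit of signal. The part of these cell type markers in the results below was not tested.

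At 0 h the same 5 members moved in both knockdowns and in both sets of arrays: Tet1, Tet2 and Dnmt3a fell, and Tet3 and Dnmt3b rose. Dnmt1 did not pass in any of the 4 comparisons. In the time course 6 of the 8 members passed in the Mettl14 knockdown (2 higher, 4 lower), where 39.5% of all genes tested passed, and 6 in the Mettl3 knockdown (2 higher, 4 lower), where 37.8% passed. For the repeat set, 6 of 8 passed in each knockdown, against 36.2% of all genes for Mettl14 and 35.3% for Mettl3. The knockdowns of the time course share 1 scramble group and are given side by side for that reason.

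**Figure D1:**
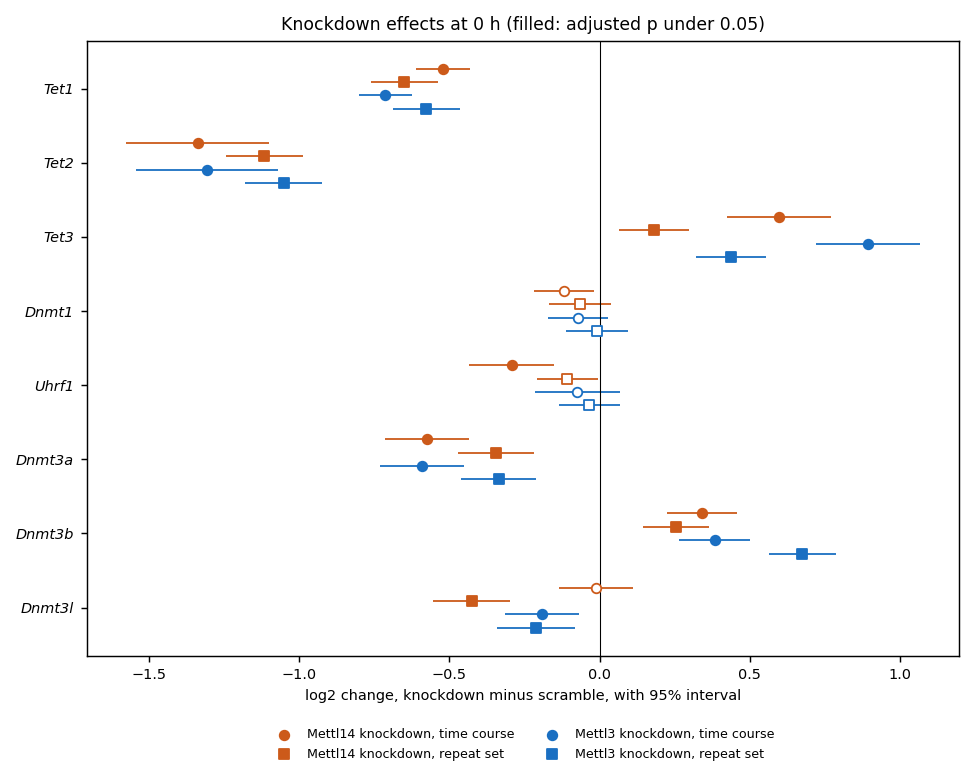
Log2 change of each member at 0 h for the Mettl14 and Mettl3 knockdowns against scramble, in the time course and in the repeat set. Points are limma estimates with 95% intervals, filled where the adjusted p was under 0.05. Tet2 lies between −1.34 and −1.05 in all 4 comparisons and Dnmt1 between −0.12 and −0.01.

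Tet2, the eraser with the largest change here, was 10.62 and 10.50 in the Mettl14 knockdown and 10.62 and 10.56 in the Mettl3 knockdown at 0 h, against 11.89 and 11.91 in scramble. The repeat set gave values of 10.36 and 10.41 in the Mettl14 knockdown against 11.51 and 11.50 in its scramble, and 10.36 and 10.45 in the Mettl3 knockdown against 11.51 and 11.41. Every knockdown array lay more than a log2 unit below every scramble array of the time course at 0 h, and no knockdown array overlapped with scramble in the repeat set. The change was −1.34 ± 0.11 (adjusted p = 1.28e-06) in the Mettl14 and −1.31 ± 0.11 (adjusted p = 1.66e-06) in the Mettl3 knockdown, which left 39.6% and 40.4% of the scramble level. It was, in the repeat set, −1.12 ± 0.05 (adjusted p = 3.29e-05) and −1.05 ± 0.05 (adjusted p = 5.51e-05), or 46.1% and 48.3%. The 2 knockdowns of the time course differed in Tet2 by −0.03, with a 95% interval of −0.27 to 0.21.

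Tet1, the eraser best known from naive embryonic stem cells, was 12.10 and 12.11 in the Mettl14 knockdown and 11.92 and 11.90 in the Mettl3 knockdown at 0 h, against 12.61 and 12.64 in scramble. On the repeat arrays the values were 11.44 and 11.49 in the Mettl14 knockdown against 12.14 and 12.09, and 11.54 and 11.50 in the Mettl3 knockdown against 12.06 and 12.13. No knockdown array reached a scramble array of its set at 0 h. The change was −0.52 ± 0.04 (adjusted p = 9.33e-07) and −0.71 ± 0.04 (adjusted p = 6.22e-08) in the time course, or 69.7% and 61.0% of scramble. It was −0.65 ± 0.05 (adjusted p = 0.000129) and −0.58 ± 0.05 (adjusted p = 0.000224) in the repeat set, or 63.7% and 67.0%. Tet1 was higher in the Mettl14 than in the Mettl3 line of the time course (0.19 ± 0.04, adjusted p = 0.0171), a comparison in which 2 of 8 members and 6.07% of all genes passed. It was lost without any 1 of the 4 knockdown arrays at 0 h (adjusted p = 0.0569 to 0.0924). In the repeat set the difference between the 2 effects on Tet1 did not pass.

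Tet3, the eraser known from the oocyte and from neural cells, went the other way. It was 8.23 and 8.28 in the Mettl14 knockdown and 8.47 and 8.64 in the Mettl3 knockdown, against 7.70 and 7.63 in scramble. On the repeat arrays it was 7.76 and 7.75 in the Mettl14 knockdown against 7.63 and 7.52, and 8.16 and 8.15 in the Mettl3 knockdown against 7.70 and 7.73. All knockdown arrays lay above the scramble arrays they were compared with, and in both sets the Mettl3 knockdown arrays lay above the Mettl14 knockdown arrays. Tet3 rose by 0.60 ± 0.08 (adjusted p = 7.9e-05) and 0.89 ± 0.08 (adjusted p = 2.94e-06) in the time course, to 151% and 186% of scramble. The rise was 0.18 ± 0.05 (adjusted p = 0.0269) and 0.44 ± 0.05 (adjusted p = 0.000832) in the repeat set. Tet3 was lower in the Mettl14 than in the Mettl3 line of the time course (−0.30 ± 0.08, adjusted p = 0.048), which was lost without any 1 of the 12 knockdown arrays or either scramble array at 0 h (adjusted p = 0.0507 to 0.272). The call in the repeat Mettl14 knockdown was lost without knockdown replicate 1 (adjusted p = 0.104), knockdown replicate 2 (0.0851) or scramble replicate 2 (0.129) and under 4 other settings.

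**Figure D2:**
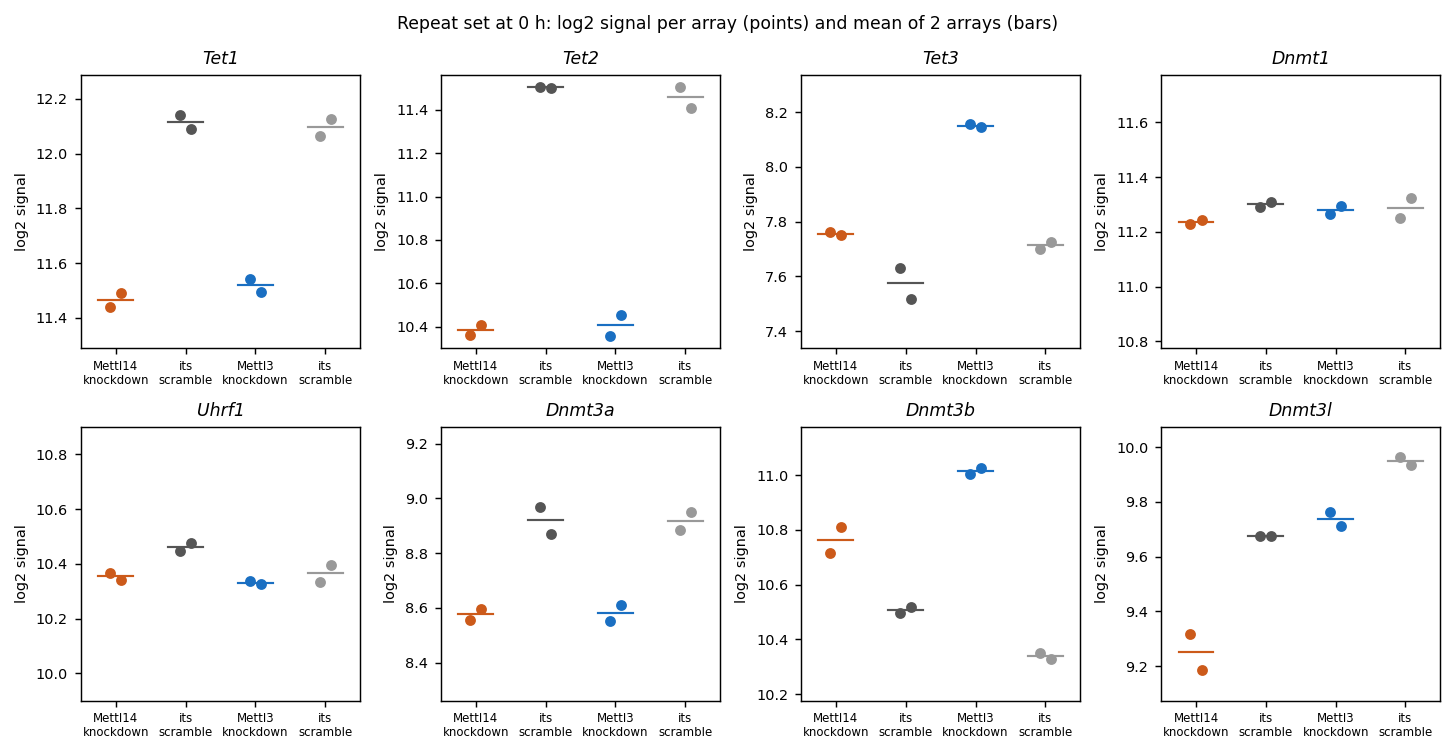
Log2 value of each member on the 8 arrays of the repeat set, with each knockdown left of its own scramble, points for single arrays and bars for the mean of 2. Each panel has its own vertical range. Tet1, Tet2 and Dnmt3a sit lower and Tet3 and Dnmt3b higher in both knockdowns, with no overlap of arrays within a pair.

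Of the pair that keeps existing methylation through replication, Dnmt1 did not pass in any of the 8 comparisons of a knockdown with its scramble. At 0 h it was 11.62 and 11.61 in the Mettl14 knockdown and 11.66 and 11.66 in the Mettl3 knockdown, against 11.75 and 11.72 in scramble. The knockdown arrays lay slightly below, and the 95% interval of the difference was −0.22 to −0.02 for Mettl14 (adjusted p = 0.0593) and −0.17 to 0.03 for Mettl3 (adjusted p = 0.247). The repeat set had Dnmt1 at 11.23 and 11.24 in the Mettl14 knockdown against 11.29 and 11.31, and 11.26 and 11.29 in the Mettl3 knockdown against 11.25 and 11.32. The intervals there were −0.17 to 0.04 and −0.11 to 0.10. Uhrf1, which recruits Dnmt1, was 10.46 and 10.67 in the Mettl14 knockdown and 10.83 and 10.74 in the Mettl3 knockdown, against 10.86 and 10.87 in scramble. It fell in the Mettl14 knockdown by 0.29 on the log2 scale (adjusted p = 0.00316) and did not pass in the Mettl3 knockdown (−0.07, adjusted p = 0.407). The repeat set gave values of 10.37 and 10.34 in the Mettl14 knockdown against 10.45 and 10.48, and 10.34 and 10.32 in the Mettl3 knockdown against 10.33 and 10.40, and neither passed (−0.11, adjusted p = 0.0953, and −0.03, adjusted p = 0.576). The difference in Uhrf1 between the knockdowns of the time course did not pass (−0.22, adjusted p = 0.0727).

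The de novo enzymes moved in opposite directions. Dnmt3a was 8.87 and 8.85 in the Mettl14 knockdown and 8.87 and 8.82 in the Mettl3 knockdown, against 9.43 and 9.45 in scramble. It was, in the repeat set, 8.56 and 8.60 in the Mettl14 knockdown against 8.97 and 8.87, and 8.55 and 8.61 in the Mettl3 knockdown against 8.88 and 8.95. The 2 knockdowns lay together and below scramble in both sets. Dnmt3a fell by 0.58 (adjusted p = 1.87e-05) and 0.59 (adjusted p = 1.59e-05) in the time course, to 67.1% and 66.4% of scramble, and by 0.34 in each knockdown of the repeat set (adjusted p = 0.00279 and 0.00321).

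Dnmt3b was 11.14 and 11.14 in the Mettl14 knockdown and 11.21 and 11.15 in the Mettl3 knockdown, against 10.83 and 10.77 in scramble. Values in the repeat set were 10.72 and 10.81 in the Mettl14 knockdown against 10.50 and 10.52, and 11.00 and 11.03 in the Mettl3 knockdown against 10.35 and 10.33. Groups did not overlap, and the widest gap was that of the Mettl3 knockdown in the repeat set. Dnmt3b rose by 0.34 ± 0.05 (adjusted p = 0.000292) and 0.38 ± 0.05 (adjusted p = 0.000127) in the time course. The rise was 0.25 ± 0.05 (adjusted p = 0.00597) for Mettl14 and 0.67 ± 0.05 (adjusted p = 0.000133) for Mettl3 in the repeat set, and the 2 effects there differed (−0.42 ± 0.07, adjusted p = 0.0254), which 1 of 8 members and 3.04% of all genes did. That difference was lost without any 1 of the 8 repeat arrays (adjusted p = 0.0535 to 0.0943) and with no filter on dim genes (0.0956). When the arrays were set equal on the median of 9 commonly used reference genes, the rise of Dnmt3b did not pass in any comparison of the time course (0.19 to 0.28, adjusted p = 0.0879 to 0.226) or in the repeat Mettl14 knockdown (0.10, adjusted p = 0.216). That scaling moved the median change of all genes at 0 h to −0.15 and −0.16 in the time course and to −0.16 and −0.05 in the repeat set.

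Dnmt3l, the catalytically inactive partner of Dnmt3a and Dnmt3b, gave a different picture in the 2 sets. In the time course at 0 h it was 10.98 and 11.02 in the Mettl14 knockdown and 10.83 and 10.82 in the Mettl3 knockdown, against 10.99 and 11.04 in scramble. On the repeat arrays it was 9.32 and 9.19 in the Mettl14 knockdown against 9.68 and 9.68, and 9.76 and 9.71 in the Mettl3 knockdown against 9.96 and 9.93. The scramble arrays of the repeat set were thus more than a log2 unit below those of the time course, and whether the authors normalised all 26 arrays together is not stated. In the Mettl14 knockdown the change was −0.01 ± 0.06 (adjusted p = 0.894) in the time course and −0.43 ± 0.05 (adjusted p = 0.00119) in the repeat set. In the Mettl3 knockdown it was −0.19 ± 0.06 (adjusted p = 0.0177) and −0.21 ± 0.05 (adjusted p = 0.0222). The Mettl3 call was lost without either knockdown array of the time course (adjusted p = 0.0604 and 0.0675) or scramble replicate 2 (0.110), and in the repeat set without any 1 of its 4 arrays (adjusted p = 0.0530 to 0.0979).

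Whether the effects at 0 h had the same size in the 2 sets was tested with the difference of the 2 changes. For Mettl14 it passed for Tet3 (0.41 ± 0.10, adjusted p = 0.00871) and Dnmt3l (0.41 ± 0.08, adjusted p = 0.00118), where 16.5% of all genes passed. For Mettl3 it passed for Tet3 (0.46 ± 0.10, adjusted p = 0.00771) and Dnmt3b (−0.29 ± 0.07, adjusted p = 0.012), where 9.81% of all genes passed. All 4 of these calls were lost when the arrays were set equal on the 9 reference genes. The adjusted p was then 0.142 and 0.291 for Tet3, 0.0828 for Dnmt3l and 0.167 for Dnmt3b. The differences kept their direction under that scaling, and only that of Tet3 for Mettl3 was smaller. The Dnmt3b difference was lost without scramble replicate 1 of the time course at 0 h (−0.26, adjusted p = 0.0548).

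Tdg could be read only from the 2 probe sets it shares with pseudogenes, in which signal from the gene and from the copy cannot be told apart. The probe set listed for Tdg-ps2 and Tdg was 10.92 and 10.73 in the Mettl14 knockdown and 10.76 and 10.89 in the Mettl3 knockdown at 0 h, against 10.82 and 10.69 in scramble. The other, listed for Tdg and Tdg-ps, was 6.78 and 6.64, and 6.68 and 6.79, in the knockdowns against 6.97 and 6.23. Knockdown and scramble arrays of the time course overlapped in both at 0 h. In the repeat Mettl14 knockdown they did not overlap in either. The first was 10.71 to 10.78 against 10.67 there, and the second 6.46 against 6.49 to 6.51. At 4 h the first was also apart in the Mettl14 knockdown (11.06 to 11.07 against 10.88 to 10.96). Neither probe set passed in any of the 8 comparisons of knockdown with scramble. The changes at 0 h were 0.07, 0.08, 0.07 and 0.03 for the first (adjusted p = 0.315 to 0.685) and −0.03 to 0.28 for the second (adjusted p = 0.179 to 0.884).

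The differences from scramble held at 4 and 8 h. Tet1, Tet2 and Dnmt3a were lower and Tet3 and Dnmt3b higher in all 8 comparisons of a knockdown with its scramble, over both sets and all times. Uhrf1 was lower in 3 of the 8, all of them in the Mettl14 knockdown of the time course, and Dnmt3l in 4. At 4 h 6 of 8 members passed in each knockdown, against 39.5% of all genes for Mettl14 and 37.8% for Mettl3. At 8 h 6 of 8 passed for Mettl14, against 43.6%, and 5 of 8 for Mettl3, against 42.8%. The largest difference at these times was that of Tet2 in the Mettl3 knockdown at 4 h, with 9.61 and 9.42 against 11.07 and 11.10 in scramble (−1.57, adjusted p = 3.8e-07, 33.7% of scramble). Tet3 was at 204% of scramble in the Mettl3 knockdown at 8 h, with 8.36 and 8.40 against 7.25 and 7.44 (1.03, adjusted p = 7.01e-07). Its mean in that knockdown was not higher at 8 h (8.38) than at 0 h (8.55), while that of scramble was lower (7.35 against 7.66).

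**Figure D3:**
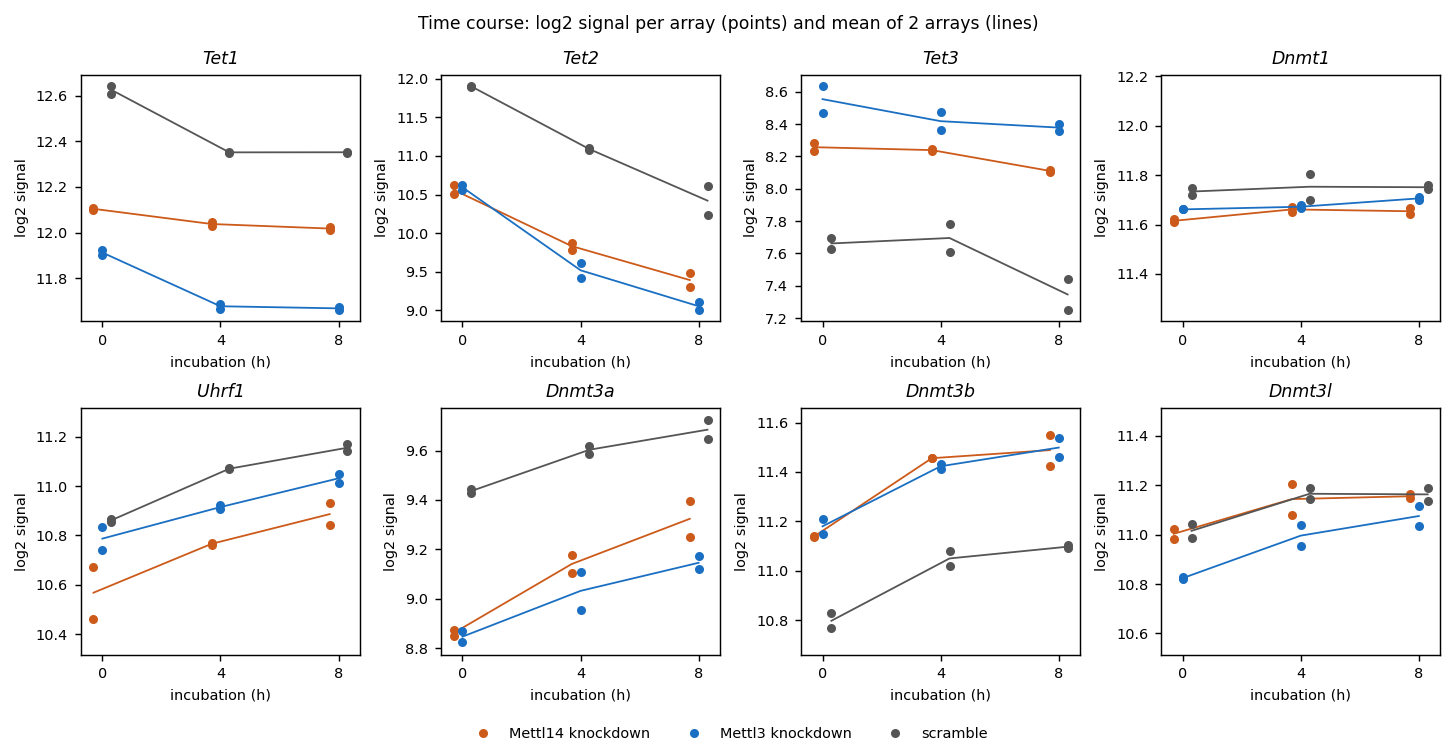
Log2 value of each member on the 18 arrays of the time course at 0, 4 and 8 h, with the knockdowns left of scramble, points for single arrays and lines through the means of 2. Each panel has its own vertical range. Tet2 falls with time in all 3 lines and lies lower in both knockdowns at each time, while Dnmt1 keeps within 11.61 to 11.81.

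Over the 8 h Tet2 fell in all 3 lines of cells. It was 10.62 and 10.50 at 0 h, 9.88 and 9.79 at 4 h and 9.30 and 9.48 at 8 h in the Mettl14 knockdown. In the Mettl3 knockdown it was 10.62 and 10.56, then 9.61 and 9.42, then 9.10 and 9.0. In scramble it was 11.89 and 11.91, then 11.07 and 11.10, then 10.61 and 10.23. The times did not overlap within any line. The 8 h level was 44.5% of the 0 h level in the Mettl14 knockdown (−1.17, adjusted p = 2.97e-06), 34.4% in the Mettl3 knockdown (−1.54, adjusted p = 3.41e-07) and 35.9% in scramble (−1.48, adjusted p = 3.36e-07). Scramble at 8 h thus overlapped with both knockdowns at 0 h. Tet2 was the only member to pass between 4 and 8 h in the knockdowns (−0.44, adjusted p = 0.0282, and −0.47, adjusted p = 0.0216). It was 1 of 2 in scramble (−0.67, adjusted p = 0.00132), and these steps had 7.99%, 7.84% and 14.9% of all genes passing. The Mettl14 step was lost without either of its 4 h arrays or replicate 1 at 8 h (adjusted p = 0.0933 to 0.210), and the Mettl3 step without replicate 1 at 4 h or either 8 h array (0.0580 to 0.162). The difference between a knockdown and scramble in the fall from 0 to 8 h did not pass (0.31 ± 0.15, adjusted p = 0.303, for Mettl14, and −0.06, adjusted p = 0.865, for Mettl3).

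Tet1 was lower at 4 h in the Mettl3 knockdown and in scramble and did not pass between 4 and 8 h in any line. In the Mettl3 knockdown it was 11.92 and 11.90 at 0 h, 11.69 and 11.66 at 4 h and 11.68 and 11.66 at 8 h, and in scramble 12.61 and 12.64, then 12.35 and 12.35, then 12.35 and 12.35. From 0 to 8 h it fell by 0.24 (adjusted p = 0.000275) and 0.27 (adjusted p = 0.000113) in these lines. In the Mettl14 knockdown it was 12.10 and 12.11, then 12.03 and 12.05, then 12.02 and 12.01, a change that did not pass (−0.09 ± 0.04, adjusted p = 0.0904). The Mettl14 line therefore differed least over time, yet the difference from the change in scramble did not pass (0.19 ± 0.06, adjusted p = 0.0912, where 4.99% of all genes passed). It passed when variance shrinkage followed the mean signal and was made robust (adjusted p = 0.0103), with a stricter filter on dim genes (0.0493) and with all 26 arrays in 1 model (0.0422). No member passed in any of the 4 tests of a knockdown's change over time against that of scramble, in the other 3 of which 0.108%, 0.0609% and 3.47% of all genes passed.

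Tet3 did not pass over time in either knockdown (8 h against 0 h: −0.15, adjusted p = 0.136, and −0.18, adjusted p = 0.0781). In scramble it was 7.70 and 7.63 at 0 h, 7.78 and 7.61 at 4 h and 7.25 and 7.44 at 8 h. It fell by 0.32 from 0 to 8 h (adjusted p = 0.00443), to 80.4%, with the change lying between 4 and 8 h. That call was lost without scramble replicate 1 at 8 h (−0.22, adjusted p = 0.0537) and after renewed quantile normalisation (−0.07, adjusted p = 0.468).

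The de novo enzymes and Uhrf1 were higher at 8 h than at 0 h in all 3 lines. The median of all genes tested was also higher at 8 h, by 0.12 in the Mettl14 knockdown, 0.11 in the Mettl3 knockdown and 0.15 in scramble, so the rises are to be read against those shifts. The mean of the fibroblast markers was also higher with time, at 6.89, 7.08 and 7.16 at 0, 4 and 8 h in the Mettl14 knockdown, 6.84, 7.09 and 7.08 in the Mettl3 knockdown and 6.57, 6.81 and 6.91 in scramble, and its part in the rises was not tested. Dnmt3a rose by 0.46 (adjusted p = 6.75e-05), 0.30 (adjusted p = 0.00168) and 0.25 (adjusted p = 0.0052). In the Mettl14 knockdown, where its change was largest, it was 8.87 and 8.85 at 0 h, 9.10 and 9.18 at 4 h and 9.40 and 9.25 at 8 h, yet below the 9.43 and 9.45 of scramble at 0 h. Dnmt3b rose by 0.35 (adjusted p = 0.000141), 0.32 (adjusted p = 0.000294) and 0.30 (adjusted p = 0.00044), most of it by 4 h. Uhrf1 rose by 0.32, 0.24 and 0.29 and Dnmt3l by 0.15, 0.25 and 0.15, which for Dnmt3l is close to the shift of all genes in the Mettl14 knockdown and in scramble. Dnmt1 moved by 0.04, 0.04 and 0.02 and did not pass (adjusted p = 0.5, 0.439 and 0.756). When the arrays were set equal on the 9 reference genes, Dnmt3a in the Mettl14 knockdown was the only 1 of these rises from 0 to 8 h to pass.

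**Figure D4:**
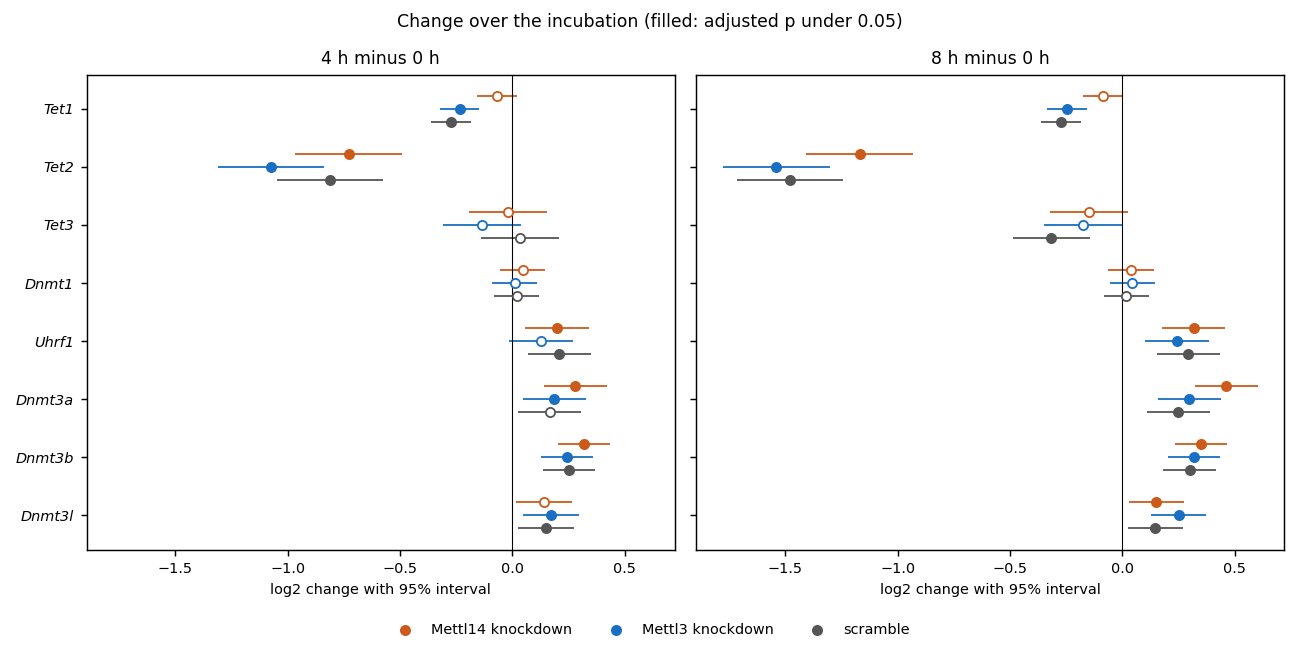
Log2 change of each member from 0 to 4 h and from 0 to 8 h in the Mettl14 knockdown, the Mettl3 knockdown and scramble. Points are limma estimates with 95% intervals, filled where the adjusted p was under 0.05. Tet2 and Tet1 lie below 0 and Dnmt3a, Dnmt3b, Dnmt3l and Uhrf1 above it in all 3 lines of cells.

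Over all members, 4 of 8 passed from 0 to 4 h in the Mettl14 knockdown (3 higher, 1 lower) against 46.2% of all genes, 5 in the Mettl3 knockdown (3 higher, 2 lower) against 44.6%, and 5 in scramble (3 higher, 2 lower) against 46.3%. From 0 to 8 h 5 of 8 passed in the Mettl14 knockdown (4 higher, 1 lower), against 56.2% of all genes (36.8% higher, 19.4% lower). In the Mettl3 knockdown 6 passed (4 higher, 2 lower), against 56.1% (36.9% higher, 19.2% lower), and in scramble 7 (4 higher, 3 lower), against 60.8% (39.2% higher, 21.6% lower). Each of these total counts lay above the share of all genes. With only 8 members, whether they differ from the array as a whole was not tested. In the Tdg-ps2 and Tdg probe set the 8 h level was above the 0 h level in the Mettl14 knockdown (0.26, adjusted p = 0.0338) and in scramble (0.40, adjusted p = 0.00289) and did not pass in the Mettl3 knockdown (0.19, adjusted p = 0.11).

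The order of the groups within each set sums up these levels. Tet1 was highest in scramble at 0 h, followed by scramble at 8 and 4 h, which overlapped, then the Mettl14 knockdown at 0, 4 and 8 h, and the Mettl3 knockdown with its 4 and 8 h arrays overlapping at the bottom. Dnmt3b ran the reverse way: all 6 knockdown groups lay above all 3 scramble groups. The 3 highest means were those of both knockdowns at 8 h and the Mettl14 knockdown at 4 h. The Mettl14 knockdown at 8 h overlapped with its own 4 h arrays and with the Mettl3 knockdown at 4 and 8 h. Tet3 likewise had its 6 knockdown groups above scramble, with the 3 times of the Mettl3 knockdown at the top. The 4 h arrays of that knockdown overlapped with those at 0 h and at 8 h, which did not overlap with each other. Dnmt3a had its 3 scramble groups at the top, in the order 8, 4 and 0 h, and both knockdowns at 0 h overlapping at the bottom. In Dnmt3l 8 of the 9 groups formed a row in which neighbours overlapped, and the Mettl3 knockdown at 0 h lay below them. In the repeat set the Mettl14 knockdown was lowest for Dnmt3l, below its scramble, and the scramble for Mettl3 was highest.

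Across the 13 group means, each centred within its set, some members varied together and others in opposition. Pearson's r was 0.874 between Tet1 and Tet2, 0.842 between Dnmt1 and Dnmt3a and 0.825 between Dnmt1 and Uhrf1. It was −0.927 between Dnmt3b and Tet2, −0.893 between Dnmt3a and Tet3 and −0.861 between Dnmt3b and Tet1. Among the 13595 candidate genes, those whose 13 means were most like Tet2 were Mtf2, a Polycomb accessory protein (0.982), Rbbp5, a subunit of histone H3 lysine 4 methyltransferases (0.974), and Zfp42, the zinc finger protein Rex1 (0.974). For Dnmt3b they were Gpc3 (0.983), Spg20 (0.974) and Coro7 (0.970), and for Dnmt3a Slc25a39 (0.987), Klk1 (0.986) and Sec14l1 (0.984). Those most like Uhrf1 were Rsrc1 (0.981), Syce2 (0.977) and Cd9 (0.973). Dusp27 (0.966), Cdsn (0.966) and Fam169a (0.965) were most like Tet1, Brinp1 (0.980), Rasl11a (0.970) and Nap1l2 (0.964) most like Tet3, and Atxn2l (0.972), Cacng7 (0.971) and Adgrb1 (0.964) most like Dnmt1. Dnmt3l had the weakest likeness, with Ube3c (0.920), Ss18 (0.909) and Mpc1 (0.903). The points share arrays and scramble groups, and these coefficients are a description with no test. Those of Dnmt1 rest on small differences. Its group means ran only from 11.615 to 11.753 in the time course and from 11.235 to 11.301 in the repeat set.

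Genes around the DNA methylation enzymes were followed in lists, which share some genes with each other and with the cell type markers above. Of 11 regulators and partners of the TET genes tested, 1 was higher and 7 lower in the Mettl14 knockdown, and 2 higher and 7 lower in the Mettl3 knockdown, both in the time course. The repeat arrays had 0 higher and 6 lower, and 1 higher and 6 lower. By direction, 19.4% of all genes were higher and 20.1% lower in the Mettl14 knockdown of the time course, and 19.3% and 18.6% in the Mettl3 knockdown. For the repeat set these shares were 19.4% and 16.9% for Mettl14 and 17.9% and 17.4% for Mettl3. The median change of the list was −0.28 and −0.30 in the time course and −0.13 and −0.17 in the repeat set, while the median of all genes tested rounded to 0.00 in each. Prdm14, which is known to hold down Dnmt3b in naive cells, fell by 1.07 and 1.19 in the time course and by 0.84 and 0.74 in the repeat set. Esrrb, Nanog and Pou5f1, pluripotency factors of this list, also fell in all 4 comparisons, Esrrb by 1.09, 1.09, 0.67 and 0.83. These pluripotency factors are counted among the embryonic stem cell markers as well, so the falls of the lists are not separate results.

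Among 15 partners of maintenance and targeting, 8 were lower in each knockdown of the time course, and 1 and 0 were higher. On the repeat arrays 6 and 5 were lower and 1 higher in each. Usp7, a deubiquitinase that binds Dnmt1 and Uhrf1, fell by 0.32 and 0.38, and by 0.27 and 0.29 in the repeat set. Trim28, the corepressor that Zfp57 brings to imprinted regions, fell in all 4 (−0.34, −0.20, −0.21 and −0.20). Dppa3, which keeps Uhrf1 from DNA in oocytes, went different ways: it fell in both knockdowns of the time course (−0.33 and −1.12), rose in the repeat Mettl14 knockdown (0.34) and did not pass in the repeat Mettl3 knockdown (−0.17). The medians of these 15 partners were −0.17, −0.18, −0.08 and −0.08.

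Of 13 genes of base excision and cytosine deamination tested, 3 rose and 4 fell, and 2 rose and 3 fell, in the time course, and 3 rose and 5 fell, and 1 rose and 5 fell, in the repeat set. Parp1, which senses the nicks of this repair, fell in all 4 comparisons (−0.53, −0.50, −0.29 and −0.32), and Gadd45b, a stress gene linked to active demethylation, rose in all 4 (0.53, 0.40, 0.72 and 0.47). Among 8 binders of methylated DNA, 3 rose and 2 fell, and 3 rose and 1 fell, in the time course (medians 0.14 and 0.14). The repeat set had 3 and 0, and 2 and 2 (medians 0.07 and 0.05). Mbd2 rose in all 4 comparisons (0.23, 0.34, 0.50 and 0.28), as did Uhrf2, the relative of Uhrf1 (0.39, 0.24, 0.31 and 0.16). Calls in the lists were not recomputed with the arrays set equal on the reference genes, a scaling that lowers every change of a comparison by the same amount. Of 10 genes tested of methyl donor and 2-oxoglutarate supply, 2 rose and 3 fell, and 1 rose and 5 fell, in the time course, and 1 rose and 4 fell, and 3 rose and 4 fell, in the repeat set. Mtr, the methionine synthase, fell by 0.44 and 0.44, and by 0.23 and 0.33 in the repeat set. Mat2b, the regulatory subunit of methionine adenosyltransferase, fell in all 4 as well (−0.36, −0.31, −0.31 and −0.38).

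Germline genes whose promoters are known to be methylated were also followed, since loss of promoter methylation is known to release them. Of 10 tested, 0 were higher and 5 lower in the Mettl14 knockdown and 0 higher and 7 lower in the Mettl3 knockdown, in the time course, with a median of −0.49 in each. In the repeat set 1 was higher and 4 lower, and 0 higher and 4 lower (medians −0.07 and −0.21). Mael, Mov10l1, Dazl and Slc25a31 fell in all 4, Mael by 1.30 and 1.22 and, in the repeat set, by 0.74 and 0.64. Over the 8 h 7, 9 and 8 of the 10 rose in the Mettl14 knockdown, the Mettl3 knockdown and scramble (medians 0.48, 0.55 and 0.48), against 36.8%, 36.9% and 39.2% of all genes tested (medians 0.12, 0.11 and 0.15). Of 15 S phase genes tested, with which Dnmt1 and Uhrf1 are known to be expressed, 1 rose and 6 fell, and 1 rose and 3 fell, in the time course, and 2 rose and 5 fell, and 2 rose and 3 fell, in the repeat set. Pola1, the catalytic subunit of DNA polymerase alpha, fell in all 4 comparisons (−0.42, −0.32, −0.44 and −0.35).

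**Figure D5:**
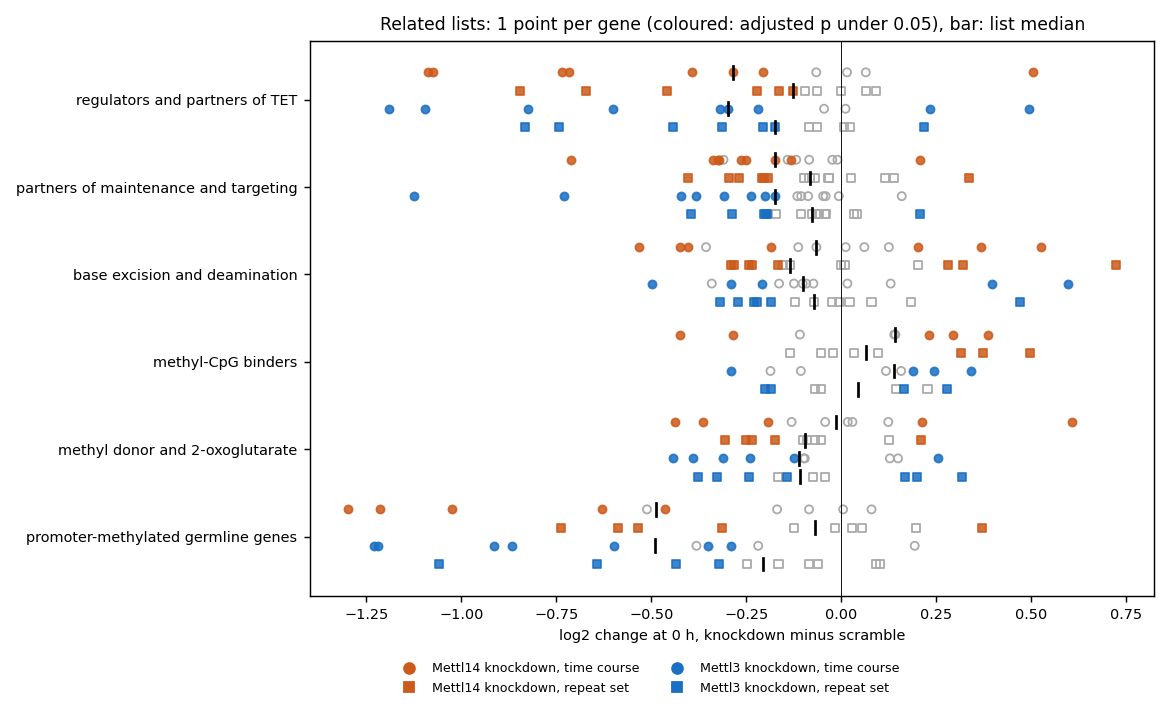
Log2 change at 0 h of the tested genes of each related list in the Mettl14 and Mettl3 knockdowns against scramble, in both sets. Points are genes, coloured where the adjusted p was under 0.05 and open grey otherwise, and bars are list medians. The regulators and partners of the TET genes have medians between −0.30 and −0.13 and the germline genes between −0.49 and −0.07.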

How the data were processed

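Total RNA was poly(A) purified and measured on 26 mouse whole-transcript arrays, 2 in each of 13 groups. The deposited values are log2 signals that the authors made by RMA in oligo, per the submitters' processing notes. Neither a version nor whether all arrays were run together is stated there. Of 41345 probe sets, 23521 carry 1 gene symbol, 1814 several and 16010 none in the platform annotation. Each gene kept its brightest probe set with 1 symbol by the mean over 26 arrays, which gave 22180 genes, and the dimmest 7393 were left out of the tests. Changes were fitted with limma 3.58.1 in R 4.3.3 (two-sided, moderated variance, Benjamini-Hochberg over 14787 genes, threshold 0.05) on 18 arrays for the time course and 8 for the repeat set, with 9 and 4 residual degrees of freedom. Differences between the sets come from 1 fit over 26 arrays. Errors are limma standard errors and intervals 95%. The number of arrays limits the precision. The correlation between the arrays of a group was 0.987 to 0.993. The steps were tested on simulated data. Members, related lists and markers were chosen with earlier results of these data known. The text names the members, the 3 genes most like each, and list genes among the 3 smallest adjusted p of a comparison at 0 h, with exceptions where stated. Deviations of same-numbered arrays from group means did not go together steadily. They correlated at −0.436 to 0.335 over 36 pairs of the time course and −0.047 to 0.042 over 6 of the repeat set. No pairing was used for that reason. Some groups of the time course thus shared deviations, in either direction, which the main fits did not model. Promoter letters are from RefSeq (GRCm38.p6). Other filters, scalings, fits and the removal of each array were tried.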

Additional observations from a re-analysis of the deposited data

Results flagged for a closer look

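5 differences between effects passed a test of the difference itself. The rise of Tet3 was larger in the time course than in the repeat set, by 0.41 (log2) for the Mettl14 and by 0.46 for the Mettl3 knockdown. The effect of the Mettl14 knockdown on Dnmt3l was −0.01 in the time course and −0.43 in the repeat set, a difference of 0.41. The rise of Dnmt3b in the Mettl3 knockdown was smaller in the time course than in the repeat set, by a difference of −0.29. Within the repeat set the rise of Dnmt3b was smaller in the Mettl14 than in the Mettl3 knockdown (−0.42). That last difference was lost without any 1 of the 8 arrays of the repeat set (adjusted p = 0.0535 to 0.0943) and with no filter on dim genes (0.0956). The other 4 no longer passed when the arrays were set equal on the reference genes, though each kept its direction. The 2 sets differ in level too: the scramble arrays of the repeat set had Dnmt3l more than a log2 unit lower, and the part of this in the differences was not tested.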

How the results depend on the processing

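36 settings, 26 of them the removal of 1 array, gave 5296 values, of which 5093 kept their direction and side of the threshold, 155 lost a call, 48 gained one and 0 reversed a call, while 90 changes passing in neither changed sign. The falls of Tet1, Tet2 and Dnmt3a in the knockdowns, and the rises of Tet3 other than in the repeat Mettl14 knockdown, kept their calls in all settings run. Tet3 in that knockdown was lost with trend and robust shrinkage (adjusted p = 0.0505), no filter (0.0702), 1 fit over 26 arrays (0.0609) and the reference genes (0.712). Dnmt1 in the Mettl14 knockdown at 0 h passed with trend and robust shrinkage (0.0129), a stricter filter on dim genes (0.0366) and 1 fit over 26 arrays (0.0264). The reference genes set equal split the calls at 0 h into 1176 higher and 3466 lower for Mettl14 against 2868 and 2978, and 1122 and 3577 for Mettl3 against 2850 and 2744. In the repeat set the split was 1398 and 5636 against 2864 and 2494, and 1741 and 2970 against 2642 and 2571, and for 8 h against 0 h in scramble 1611 and 3380 against 5799 and 3197. Under that scaling the members passing from 0 to 4 h were 1, 1 and 2 in the Mettl14 knockdown, the Mettl3 knockdown and scramble, from 0 to 8 h 2, 2 and 3, and from 4 to 8 h 0 in the Mettl14 knockdown and 1 in scramble. It left 0 between the 2 knockdowns, 0 in the set difference for Mettl14 (Tet3 0.42, adjusted p = 0.142; Dnmt3l 0.42, 0.0828) and 0 in that for Mettl3 (Tet3 0.35, 0.291; Dnmt3b −0.40, 0.167). With no filter, the counts were 0 from 4 to 8 h in each knockdown, 3 from 0 to 4 h in the Mettl3 knockdown, 0 between the knockdowns and 0 between the effects of the repeat set. Trend and robust shrinkage gave 1 in each of the Mettl14 tests against the scramble change at 4 and 8 h, 4 between the knockdowns and 2 between the effects of the repeat set. The Mettl14 test at 8 h also gave 1 with the stricter filter and with 26 arrays in 1 fit. Between the knockdowns, 1 member passed with probe sets of a gene averaged, array weights, the replicate block or renewed quantile normalisation, 4 with 26 arrays in 1 fit and 0 with the 6 arrays at 0 h alone. The replicate block, in which same-numbered arrays share only a number, lost the calls of Dnmt3l from 0 to 4 h in scramble (0.0557) and of Tet3 between the knockdowns (0.056). Without 1 array, 5 to 6 members passed for the Mettl3 knockdown at 0 h, 5 to 7 at 4 h and 5 to 6 in each knockdown of the repeat set. From 0 to 4 h these ranges were 3 to 4, 3 to 5 and 3 to 6 in the Mettl14 knockdown, the Mettl3 knockdown and scramble, from 4 to 8 h 0 to 1, 0 to 1 and 1 to 2, and from 0 to 8 h 4 to 5, 5 to 7 and 5 to 7. They were 0 to 1 for the Mettl14 test at 8 h (Tet2, 0.50, adjusted p = 0.0452, without scramble replicate 1 at 8 h), 0 to 2 between the knockdowns, 0 between the effects of the repeat set, and 2 to 3 and 1 to 2 for the set differences. The causes were not tested. The 8 members have 1 probe set each, so another probe set could be tried only for Tdg.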
